A study of Mus musculus with 28 samples.

Results

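Nascent RNA of 10 Polycomb repressive complex genes was followed in wild-type (WT) and EloA null mouse embryonic stem cells (mESCs). The genes were picked by name from the 24980 genes of the Bru-seq tables. They are Eed, Ezh2, Suz12, Jarid2, Aebp2 and Mtf2 of PRC2, and Rnf2, Ring1, Pcgf6 and Kdm2b of PRC1. The tables list all 10 of them. In Bru-seq, cells take up bromouridine (BrU) for a few minutes, and the newly made, labelled RNA is captured with an antibody and sequenced. The series holds 28 samples, of which the 12 Bru-seq libraries were used. The steady-state group was given 2 mM BrU for 10 min. Both recovery groups were first held for 60 min in 1 µM flavopiridol, an inhibitor of the kinase P-TEFb that stops release of paused Pol II, and then received BrU for 5 min or 10 min as the drug was removed. In each of these 3 conditions there are 2 libraries per genotype.

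The cells of both genotypes were CCE28 mESCs, kept on mouse embryonic fibroblast feeders with LIF and inhibitors of MEK and GSK3, and freed of feeders before use. EloA is the large subunit of Elongin, a factor that stimulates elongation by Pol II in vitro and that also serves in a ubiquitin ligase. Whether the null line is 1 clone, and where its Eloa allele is disrupted, is not given in the sources used here.

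PRC2 is the enzyme complex that methylates histone H3 at lysine 27, and PRC1 ubiquitinates histone H2A. Both hold developmental regulators silent in embryonic stem cells, where their own subunits are actively transcribed. In PRC2, Ezh2 is the methyltransferase, Suz12 the scaffold, and Eed the subunit that reads the methyl mark. Jarid2 and Aebp2 join one form of the complex and Mtf2, which binds CpG-rich DNA, joins another. In PRC1, Rnf2 (also called Ring1b) and Ring1 are the alternative ubiquitin ligases, Pcgf6 defines a variant complex active at germline genes, and Kdm2b brings another variant to unmethylated CpG islands.

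The 250 bases before the RefSeq start site (GRCm38.p6) are printed for 4 of the genes. Eed is the gene of the complex for which the study shows nascent RNA. Suz12 and Mtf2 had the lowest log2 fold changes between genotypes in each condition, and Rnf2 had the highest RPKM relative to steady state at 10 min. Capitals mark matches, on either strand, to the CCAAT box (CCAAT), the GC box (GGGCGG) and the E2F site (TTTCGCGC, TTTGGCGC or TTTCCCGC). The windows are chr7:89980977-89981226 on the minus strand for Eed, chr11:79992856-79993105 on the plus strand for Suz12, chr5:108065424-108065673 on the plus strand for the first start of Mtf2, and chr1:151500992-151501241 on the minus strand for Rnf2.
Eed: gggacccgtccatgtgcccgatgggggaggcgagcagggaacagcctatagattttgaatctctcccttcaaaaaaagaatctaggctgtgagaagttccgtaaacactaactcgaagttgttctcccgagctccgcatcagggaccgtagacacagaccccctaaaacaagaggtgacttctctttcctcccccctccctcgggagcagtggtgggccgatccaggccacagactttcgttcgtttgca
Suz12: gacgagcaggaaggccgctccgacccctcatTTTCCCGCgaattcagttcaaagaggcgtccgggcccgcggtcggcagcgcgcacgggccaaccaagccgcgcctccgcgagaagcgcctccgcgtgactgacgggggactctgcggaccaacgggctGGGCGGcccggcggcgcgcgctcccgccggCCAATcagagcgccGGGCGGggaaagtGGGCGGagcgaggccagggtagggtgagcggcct
Mtf2: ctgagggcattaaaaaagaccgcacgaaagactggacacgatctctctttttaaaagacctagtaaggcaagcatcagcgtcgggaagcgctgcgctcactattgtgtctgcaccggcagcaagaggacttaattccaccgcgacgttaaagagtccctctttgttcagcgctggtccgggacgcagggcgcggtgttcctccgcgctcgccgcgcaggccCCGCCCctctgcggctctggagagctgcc
Rnf2: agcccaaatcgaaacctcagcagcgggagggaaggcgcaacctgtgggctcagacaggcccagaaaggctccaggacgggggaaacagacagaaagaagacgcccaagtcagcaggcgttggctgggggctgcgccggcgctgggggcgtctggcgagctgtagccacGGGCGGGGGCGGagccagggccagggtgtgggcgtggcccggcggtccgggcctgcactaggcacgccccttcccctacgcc
The Suz12 window held 37 CpG dinucleotides, 3 GC boxes, 1 CCAAT box and 1 E2F site. The Rnf2 window held 20 CpG and 2 adjoining GC boxes, the Mtf2 window 23 CpG and 1 GC box. The Eed window held 12 CpG and no match to these motifs, nor to the TATA box (TATAAA), the E box (CACGTG) or the NRF1 site, which were searched as well. Over 32851 windows of the same length, the median was 6 CpG, and 33.8% held a CCAAT box, 32.7% a GC box and 1.53% an E2F site. A TATA box was in 12.4% of them, an E box in 6.02% and an NRF1 site in 0.782%. All 4 windows thus held more CpG than the median window. A match describes the letters in the window and not binding.

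RPKM values were deposited without read counts, but the steps between them gave library sizes of 9857527 to 28547356 reads. Between 96.5% and 96.9% of the expressed genes with introns then came out as whole reads (within 0.05 of a whole number) per library when the length was the summed introns with 1 exon base on each side. At that length 9 of the 10 genes gave whole reads in 12 of 12 libraries. For Kdm2b a length of 113299 bases was chosen because it gave whole reads, so its reads are no check. The fit shows the length by which reads were divided, not which reads were counted, and the methods of the study speak of reads in whole genes. Whether exonic reads are included was not settled here. Reads per library ran from 18296 to 76922 for Jarid2, from 4902 to 20869 for Eed, from 70 to 982 for Pcgf6, and from 4 to 37 for Ring1, whose introns sum to 1867 bases. Counting error was widest for Ring1 at 5 min, where 4 to 6 reads per library were found and 4 reads have an exact 95% Poisson interval of 1.09 to 10.2.

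The first steady-state library titled EloA null carries a genotype entry of wild type, and was grouped by its title. Eloa itself, the targeted gene, had higher RPKM in the libraries labelled EloA null than in WT. In steady state the values were 1.18 and 1.16 in WT against 1.96 and 1.89, at 5 min 2.96 and 2.82 against 5.14 and 6.25, and at 10 min 4.65 and 6.51 against 8.74 and 8.93. The ratios of the means were 1.65, 1.97 and 1.58 (limma adjusted p = 0.0999, 0.249 and 0.176, and 0.0900, 0.0157 and 0.0564 in a fit of all 12 libraries). These values cannot decide whether a library carries the null allele, since the site of the disruption is not given in the sources used here. The study shows an immunoblot of EloA in extracts of its WT and null cells. It judged its EloA binding signal along the genome specific by comparison with null cells, and reports that binding at a ribosomal RNA gene was near background there. Directions are given by label, and whether the labels of the 12 libraries are right was not tested. All 9 embryonic stem cell markers were expressed in each condition, with summed RPKM of 158 to 298 per library. The 9 feeder fibroblast markers summed to 0.753 to 2.64, with none at 0 in every library and Col1a1 alone expressed above 0.5, at 5 and 10 min. The 6 endoderm markers summed to at most 0.733, and the 5 neural markers to at most 2.26. The study describes its Bru-seq replicates as independent experiments, while the labels do not tie each library to a culture, and p-values measure the spread between 2 libraries per genotype.

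In WT mESCs at steady state the 6 PRC2 genes had higher levels than the 4 PRC1 genes, an order that holds for these 10 genes and not for all subunits. Mtf2 led with a mean of 20.0 RPKM ± 0.0393 (SD, n = 2), followed by Eed with 16.2 ± 0.420, Jarid2 with 14.03 ± 1.18, Suz12 with 11.9 ± 0.202 and Aebp2 with 8.56 ± 0.179. Ezh2, the catalytic subunit, had the lowest level of the 6 PRC2 genes, 4.98 ± 0.563. Rnf2 followed with 4.32 ± 0.0333, Kdm2b with 3.13 ± 0.0690, Pcgf6 with 2.21 ± 0.205 and Ring1 with 0.597 ± 0.139. No neighbours in this order overlapped in their 2 libraries. Among the 11345 genes tested in steady state, those with mean RPKM above 0.5 in either genotype, Mtf2 stood at percentile 98.3 and Eed at 97.6, while Ring1 stood at 9.62. Rnf2 nascent RNA was thus several times that of its alternative Ring1. The libraries labelled EloA null kept this order, from 17.8 ± 0.194 for Mtf2 to 0.702 ± 0.0102 for Ring1, again without overlap between neighbours. RPKM is per length, here that of the introns, so levels were set side by side between genes. Whether exonic reads are included was not settled, and if so, levels of genes with short introns would be raised. Fewer transcribing cells and less RNA per cell cannot be told apart in bulk samples.

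**Figure D1:**
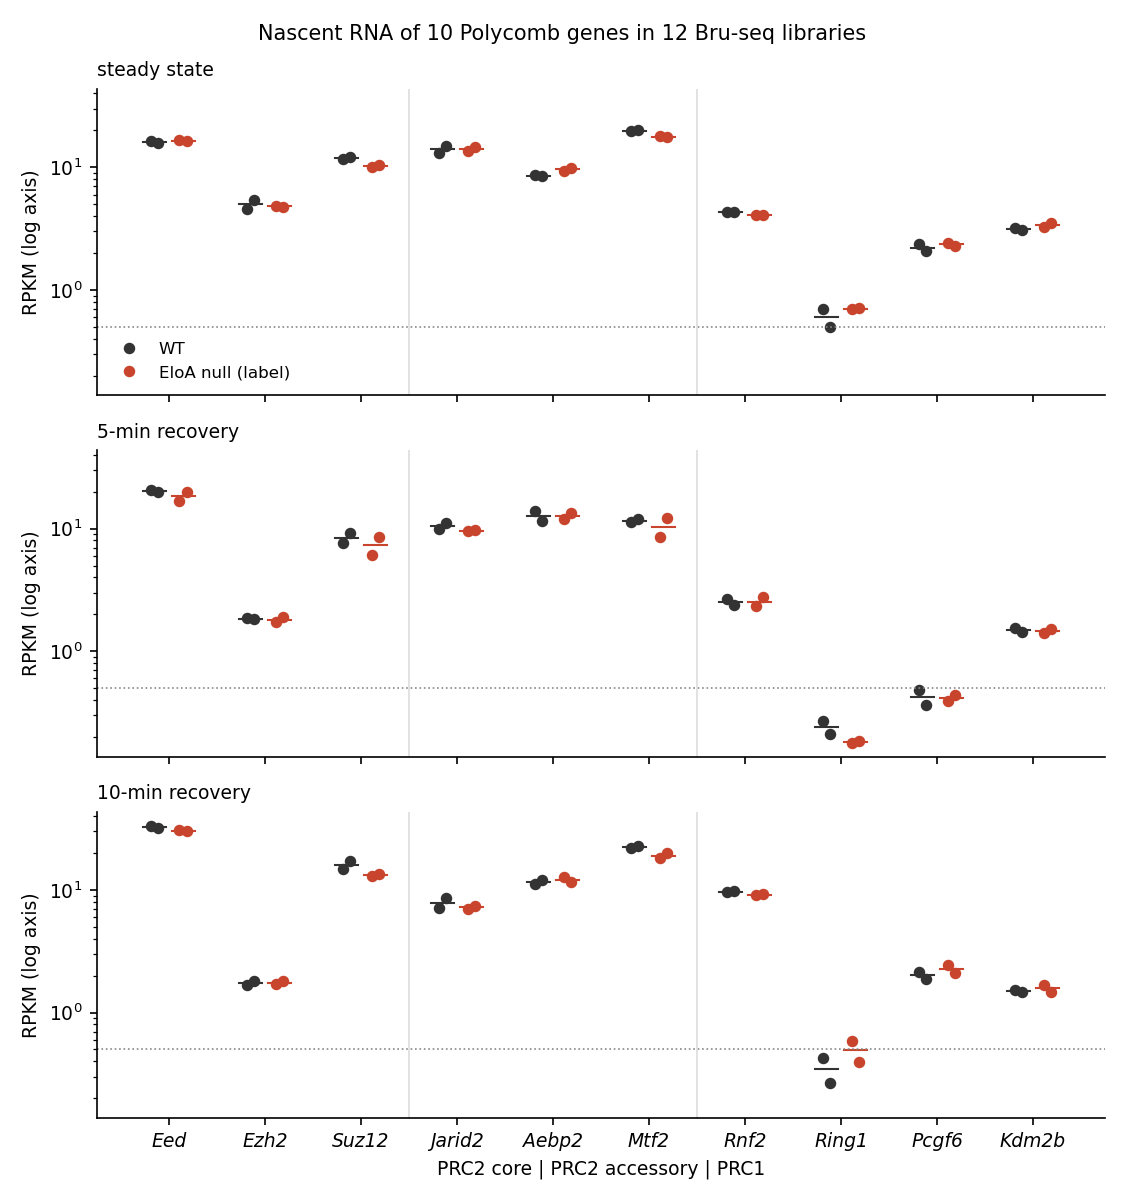
RPKM (log axis) of the 10 genes in the 12 libraries, 1 panel per condition; points are libraries, bars are means of 2, black is WT, red is labelled EloA null, and the dotted line is the expression limit of 0.5 RPKM. The genotypes lie close together for all genes, while levels move between conditions, as for Pcgf6, which lies below the limit at 5 min.

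The comparison of genotypes asks whether these genes are transcribed differently when cells lack EloA. At steady state, no Polycomb gene of the 10 differed past the threshold (limma adjusted p under 0.05), and neither did any of the 11345 genes tested (0%). At an unadjusted p under 0.05 there were 2083 genes, none of them among the 10. No member passed a 1.5-fold ratio of mean RPKM, which 7.21% of all genes passed upwards and 2.1% downwards. The median log2 fold change (EloA null minus WT) of the 10 genes was 0.01 and that of all tested genes 0.03.

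Of the PRC2 core, Eed had 16.5 and 15.9 RPKM in WT and 16.6 and 16.3 under the EloA null label. The genotypes overlapped, with a log2 fold change of 0.02 (95% interval -0.23 to 0.27, limma adjusted p = 0.938). Ezh2 had 4.58 and 5.38 in WT and 4.85 and 4.79 in the libraries labelled EloA null. Both latter values fell between those of WT, and the log2 fold change was -0.04 (interval -0.34 to 0.25, adjusted p = 0.868). Suz12 had 11.8 and 12.1 in WT against 10.1 and 10.4. It was lower in both libraries labelled EloA null, at 0.858 of the WT mean, with a log2 fold change of -0.22 (interval -0.46 to 0.02, adjusted p = 0.298).

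Among the accessory subunits of PRC2, Mtf2 was lower in both libraries labelled EloA null, at 18.0 and 17.7 against 19.9 and 20.0 in WT. Its log2 fold change was -0.16 (interval -0.41 to 0.08, limma adjusted p = 0.409). Aebp2, in contrast, was higher in both, at 9.34 and 9.93 against 8.69 and 8.44, with a log2 fold change of 0.17 (interval -0.08 to 0.41, adjusted p = 0.395). Jarid2 overlapped, at 13.2 and 14.9 in WT and 13.5 and 14.5, and its means differed by 0.0492%, with an interval of -0.30 to 0.30 on the log2 scale.

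In PRC1, the ligase gene Rnf2 had 4.30 and 4.35 in WT and 4.06 in each library labelled EloA null, a difference of -0.09 (interval -0.30 to 0.12, limma adjusted p = 0.584). Kdm2b was higher in both libraries labelled EloA null, at 3.24 and 3.52 against 3.18 and 3.08, a difference of 0.11 (interval -0.13 to 0.34, adjusted p = 0.544). Pcgf6 overlapped, with 2.35 and 2.06 in WT and 2.41 and 2.30. Ring1 overlapped too, with 0.695 and 0.499 in WT and 0.694 and 0.709, and the interval of its log2 fold change ran from -0.26 to 0.69. In all, 2 of the 10 genes (Aebp2 and Kdm2b) were higher in both libraries labelled EloA null and 3 (Suz12, Mtf2 and Rnf2) lower, where 32% and 21.4% of all tested genes were so. Centring each library on its median gave 1 higher (Aebp2) and 4 lower (Suz12, Mtf2, Rnf2 and Eed).

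**Figure D2:**
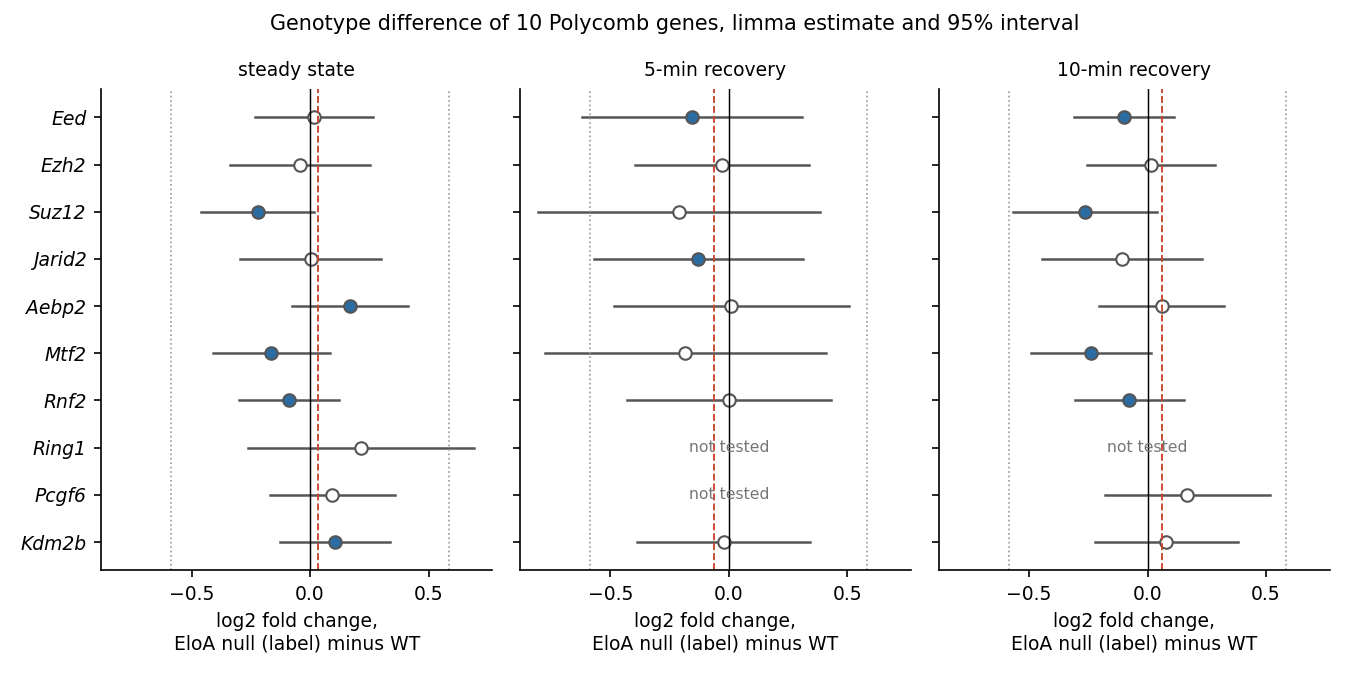
Log2 fold change (EloA null minus WT, limma on log2(RPKM + 0.1)) of the 10 genes in the 3 conditions with 95% intervals; filled points mark genes whose 2 libraries per genotype do not overlap, the red dashed line is the median of all tested genes and dotted lines mark 1.5-fold. Suz12 and Mtf2 lie left of 0 in each panel, all intervals cross 0, and those at steady state and 10 min stay within 1.5-fold except that of Ring1.

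At 5 min of recovery, 8 of the 10 genes were tested, since Pcgf6 and Ring1 had mean RPKM of 0.5 or less in both genotypes. None of the 8 passed the adjusted p, and nor did any of 8984 genes (0%), while 846 had an unadjusted p under 0.05. None of the 8 passed 1.5-fold, against 5.4% upwards and 6.72% downwards among all genes (485 and 604 genes as deposited, 598 and 499 after median centring). Eed was lower in both libraries labelled EloA null, at 16.9 and 19.7 RPKM against 20.7 and 20.0 in WT. The log2 fold change was -0.16 (interval -0.62 to 0.31, limma adjusted p = 0.849), with 1 of the 2 values close to WT. Jarid2 was lower in both as well, at 9.49 and 9.80 against 10.0 and 11.1. These 2 genes were the only tested members without overlap, none higher (15.4% of all genes) and 2 lower (25%). After median centring neither stood apart, and Kdm2b alone was higher in both. Suz12 (7.65 and 9.14 in WT, 6.09 and 8.52) and Mtf2 (11.2 and 12.05 in WT, 8.52 and 12.3) overlapped at this time, because the first library labelled EloA null was low and the second was not. Their log2 fold changes were -0.21 (interval -0.81 to 0.38) and -0.18 (interval -0.78 to 0.41). Without that first library they were 0.03 and 0.08.

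At 10 min of recovery, 9 of the 10 genes were tested and none passed the adjusted p, as was the case for all 10239 genes (0%), 2098 of them with an unadjusted p under 0.05. None passed 1.5-fold, against 9.41% upwards and 3.01% downwards among all genes (964 and 308 genes as deposited, 706 and 407 after median centring). Suz12 had 14.7 and 17.3 RPKM in WT and 12.9 and 13.6 in the libraries labelled EloA null. Mtf2 had 22.1 and 22.9 in WT and 18.1 and 20.0. The log2 fold changes, -0.27 for Suz12 (interval -0.57 to 0.04, limma adjusted p = 0.281) and -0.24 for Mtf2 (interval -0.49 to 0.01, adjusted p = 0.258), were the lowest of the 9. Eed had 33.5 and 31.8 in WT and 30.8 and 30.1, a difference of -0.10 (interval -0.31 to 0.11). Rnf2 had 9.59 and 9.74 against 9.01 and 9.30, a difference of -0.08 (interval -0.31 to 0.15). These 4 genes were lower in both libraries labelled EloA null, where 21.8% of all genes were, and none was higher in both, where 33.5% of all genes were. The same 4 genes stood apart after median centring. Ezh2, Jarid2, Aebp2, Pcgf6 and Kdm2b overlapped, with log2 fold changes from -0.11 to 0.17. The median over the 9 genes was -0.08 and that of all tested genes 0.06.

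Suz12 (chromosome 11) and Mtf2 (chromosome 5) are not neighbours, and the median log2 fold change of genes on these chromosomes was -0.03 and 0.04 in steady state, -0.14 and -0.08 at 5 min, and 0.01 and 0.05 at 10 min. At 5 min the median of chromosome 11 was the lowest of all chromosomes, in the direction of Suz12, and its part in the value of Suz12 was not tested. None of the 10 genes lies on chromosome 14, whose 409 tested genes had a median log2 fold change of 0.50 in steady state, against 0.02 for genes elsewhere. The change of the genotype difference between conditions was tested in a fit of all 12 libraries. From steady state to 5 min, 7 of 8627 genes passed the adjusted p (0.0811%), and from steady state to 10 min 1 of 9823 (0.0102%), none of them a member. For the members the change ran from -0.17 (Eed) to 0.09 (Rnf2) at 5 min and from -0.12 (Eed) to 0.07 (Pcgf6) at 10 min, with limma adjusted p of 0.933 or more.

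The 10 genes differed widely from each other in their recovery from flavopiridol. The 3 tables were normalized separately and how they relate is not stated, so RPKM relative to steady state is given side by side without a test. RPKM is scaled to the size of each library. A higher value in recovery can thus be a larger share of the reads without more nascent RNA per cell. In WT, the median over the 10 genes was 0.585 ± 0.0107 (SD, n = 2) of steady state at 5 min and 1.02 ± 0.0258 at 10 min, and the median over all 11345 genes was 0.623 and 1.01. In the libraries labelled EloA null it was 0.605 ± 0.112 and 1.02 ± 0.0158. Dividing each library by its own median gave 0.775 and 0.817 in WT, so most of the difference between 5 and 10 min in the median is gone under that scaling.

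Eed, at 26323 bases, had higher RPKM than in steady state at both times. In WT it was at 1.26 ± 0.0309 of the steady-state mean at 5 min and 2.01 ± 0.0739 at 10 min. In the libraries labelled EloA null the values were 1.12 ± 0.120 and 1.86 ± 0.0320. Genes of 20 to 50 kb had WT medians of 0.460 and 1.07, which put Eed at percentiles 93.1 and 85.4 of 2880 genes of its length. Under median scaling Eed was at 1.66 and 1.62, above its steady-state value at both times and no higher at 10 min than at 5 min. Suz12 (41018 bases) reached 0.703 ± 0.0883 and 1.34 ± 0.151, and Mtf2 (43560 bases) 0.583 ± 0.0293 and 1.13 ± 0.0287, nearer to the median of the same length class. Rnf2 (31594 bases) was at 0.586 ± 0.0507 at 5 min and then at 2.24 ± 0.0250, the highest ratio of the 10 at that time, at percentile 89.3 of its class. Median scaling left Rnf2 at 0.775 and 1.79.

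In WT, the 4 genes over 50 kb were no higher at 10 min than at 5 min. Ezh2 (64997 bases) was at 0.371 ± 0.00234 at 5 min and 0.349 ± 0.0159 at 10 min in WT, at percentiles 24.4 and 11.9 of 1473 genes of 50 to 100 kb. Aebp2 (56019 bases), of the same class, was at 1.48 ± 0.201 and 1.35 ± 0.0603, at percentiles 96.8 and 94.2. In the libraries labelled EloA null Ezh2 was at 0.376 and 0.365 and Aebp2 at 1.32 and 1.25, so these PRC2 genes of similar length lay on opposite sides of the class median (0.539 and 0.610 in WT) in both genotypes. Jarid2 (190870 bases) was at 0.753 ± 0.0556 and 0.557 ± 0.0750, and Kdm2b (118607 bases) at 0.478 ± 0.0241 and 0.476 ± 0.0102. Both were below the median of genes over 100 kb, 1.15 and 0.655. The annotation gives Kdm2b and Aebp2 several start sites, for Kdm2b some of them deep inside the gene, and 1 RPKM per gene does not separate them.

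The lowest ratio at 5 min was that of a short PRC1 gene. Pcgf6 (17323 bases) was at 0.191 ± 0.0374 of steady state in WT and at 0.175 ± 0.0137 under the EloA null label. Its read number at 5 min was 70 to 115 in each library. This was percentile 8.02 of 2108 genes of 10 to 20 kb, whose WT median was 0.639. At 10 min it was at 0.910 ± 0.0802 in WT and 0.963 ± 0.110. Ring1 (3889 bases) was at 0.405 ± 0.0714 and 0.581 ± 0.189 in WT, values that rest on 5 to 15 reads per library.

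**Figure D3:**
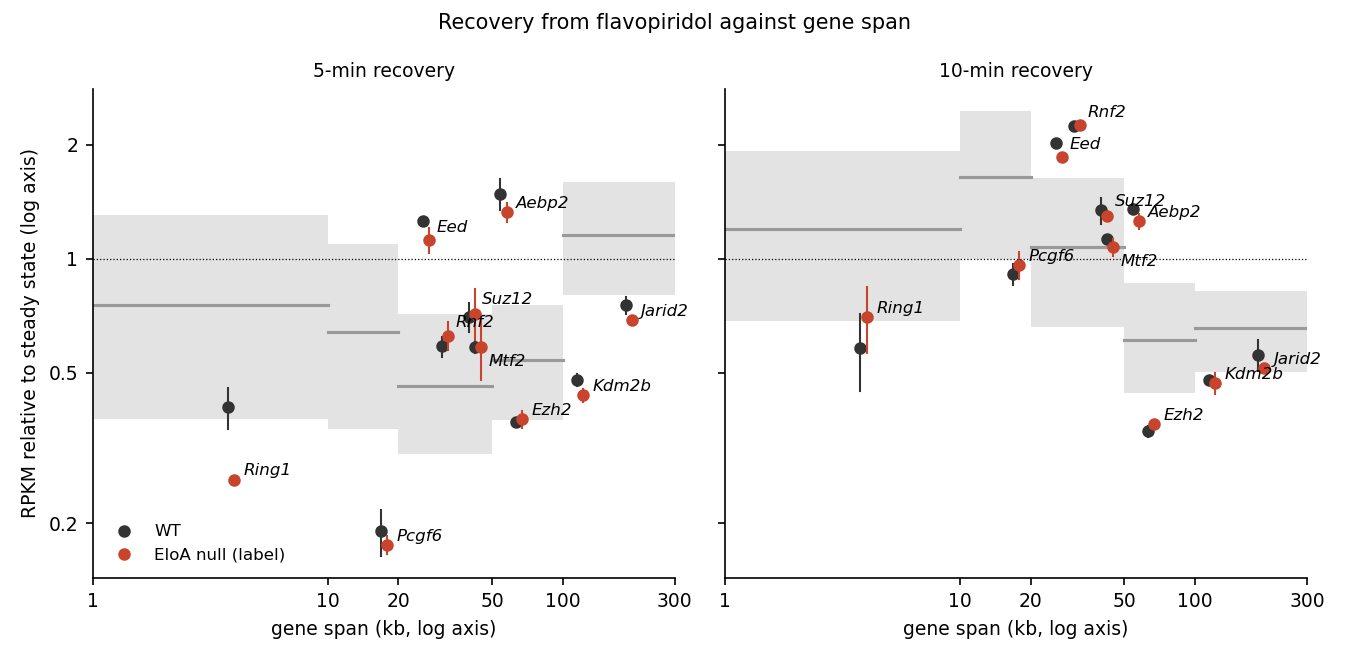
RPKM in recovery divided by the steady-state mean of the same genotype (log axis) against gene span (kb, log axis) for the 10 genes; points are means of 2 libraries, lines join the 2 libraries, black is WT, red is labelled EloA null, and grey bars and bands are the WT median and quartiles of genes by length class (under 10, 10 to 20, 20 to 50, 50 to 100 and over 100 kb, the outer classes drawn to the edges). Eed and Aebp2 stand above 1 at both times and Ezh2 below 0.5, with both genotypes close together.

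As for the times themselves, the ratio of WT RPKM at 10 min to that at 5 min was 4.77 for Pcgf6, 3.81 for Rnf2, 1.93 for Mtf2, 1.91 for Suz12 and 1.60 for Eed, each with no overlap between times. In the libraries labelled EloA null these ratios were 5.49, 3.60, 1.83, 1.82 and 1.66. The times come from tables scaled separately, so the ratios and the lack of overlap carry that scale. The 4 genes over 50 kb stood at 0.912 (Aebp2), 0.942 (Ezh2), 0.996 (Kdm2b) and 0.739 (Jarid2) in WT. Over the 8216 genes tested in all 3 tables the WT median ratio was 1.71, with 2.41 for 10 to 20 kb, 2.32 for 20 to 50 kb, 1.26 for 50 to 100 kb and 0.572 for genes over 100 kb. Pcgf6 and Rnf2 thus exceeded, and Mtf2, Suz12 and Eed fell short of, the median of their length. By 10 min Eed had the highest level of the 10 genes in both genotypes, ahead of Mtf2, and the order at that time was again without overlap between neighbours. At 5 min Eed led as well, and Aebp2 and Mtf2 overlapped in both genotypes, as did Mtf2 and Jarid2 in the libraries labelled EloA null.

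The 5 genes whose pattern over the 12 libraries was most like that of Eed were Gar1, Dcp2, Psmd3, Ncl and Snrpf. The measure was the root mean square difference of gene-centred log2(RPKM + 0.1), which was 0.0725 for Gar1 and 0.0799 for Snrpf, against a median of 0.564 over 8215 genes. Gar1 had WT means of 5.74 RPKM in steady state, 7.69 at 5 min and 11.7 at 10 min, and Ncl had 31.0, 39.9 and 57.8. None of them is a Polycomb gene. Gar1 is a protein of H/ACA small nucleolar RNPs, Dcp2 the decapping enzyme, Psmd3 a proteasome subunit, Ncl nucleolin and Snrpf a core protein of spliceosomal snRNPs. Ring1 and Pcgf6 were below the limit in 1 or more tables and not compared. Of the 7 other members compared, Suz12 (0.344) and Aebp2 (0.354) were nearest to Eed, at ranks 1626 and 1741, and Ezh2 (0.996) was farthest, at rank 7453. The 12 libraries are in 3 tables with a scale each, and the measure carries those scales.

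The other genes of the pathway were read from lists chosen by function. In steady state 6 of 7 other PRC2 genes, 22 of 25 other PRC1 genes and 5 of 5 enzymes that oppose Polycomb were tested, and none passed the adjusted p in any condition. The highest of these genes by steady-state level was Usp7, a deubiquitinase found with variant PRC1, at 16.5 RPKM in WT, and the lowest was Phf19, a paralogue of Mtf2, at 0.0456. Mtf2 thus had the highest nascent RNA level of the 3 Polycomb-like genes in steady state, with Phf1 at 1.39 RPKM in WT. Ezh1, the alternative methyltransferase, was at 0.718, below Ezh2.

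Some of them passed 1.5-fold without overlap between genotypes. Of the other PRC2 genes tested, 1 of 6 did so upwards in steady state and 2 of 4 at 10 min. Of the other PRC1 genes, 1 of 22 did so downwards in steady state and 1 of 15 at 5 min. Of the opposing enzymes, 1 of 4 did so upwards at 5 min and 1 of 4 at 10 min. Among all tested genes, 6.24% did so upwards and 1.5% downwards in steady state. The shares were 4.36% and 4.91% at 5 min, and 8.43% and 2.25% at 10 min. The filter on either genotype favours such ratios near the limit, in the lists and in these shares. Phf1 at 10 min, Pcgf5 in steady state and Bmi1 at 5 min passed it only in the genotype where they were higher. Epop, a PRC2 partner that also binds Elongin B and C, had 2.01 and 2.66 RPKM in WT at steady state and 3.28 and 5.30 under the EloA null label. The ratio of means was 1.84 (log2 fold change 0.82, standard error 0.27, limma adjusted p = 0.229), and leaving out the second EloA null library gave a log2 fold change of 0.49, leaving out the first 1.16. At 10 min Epop had 2.58 and 3.23 against 5.25 and 4.66, a ratio of 1.71 (adjusted p = 0.135), and at 5 min it overlapped (6.62 and 9.59 against 5.98 and 10.5). Phf1 was higher at 10 min, 0.335 and 0.248 against 0.632 and 0.383, from 13 to 30 reads, with a log2 fold change of 0.61 that was 0.31 without the first library labelled EloA null. In steady state, from 77 to 150 reads, Phf1 had 1.36 and 1.42 in WT against 1.69 and 2.26, a ratio of 1.42 (limma adjusted p = 0.228). Of the PRC1 genes, Pcgf5, the core of another variant complex, had 0.664 and 0.713 in WT at steady state and 0.438 and 0.466 in the libraries labelled EloA null, a ratio of 0.656 (adjusted p = 0.180). At 5 and 10 min Pcgf5 was lower in both as well, but below the limit of 0.5 RPKM and not tested. Bmi1, a subunit of canonical PRC1, was lower at 5 min with a ratio of 0.654, from 17 to 50 reads per library, which median centring brought within 1.5-fold. Its log2 fold change was -0.55, and -0.16 without the first library labelled EloA null.

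Bap1, the deubiquitinase that removes the mark set by PRC1, was higher in both libraries labelled EloA null at 5 min (6.34 and 6.49 against 4.62 and 3.86) and 10 min (15.6 and 15.4 against 9.27 and 9.59). The ratios were 1.51 and 1.64, with limma adjusted p of 0.471 and 0.0887. In steady state Bap1 was higher in both as well, at 4.67 and 4.38 against 3.36 and 2.90, a ratio of 1.44 (limma adjusted p = 0.143). The fit of all 12 libraries called 1.2% of genes in steady state, 6.21% at 5 min and 3.52% at 10 min, and none of the 10 members. Its adjusted p for Bap1 was 0.0740 in steady state, 0.0231 at 5 min and 0.0194 at 10 min. Bap1 lies on chromosome 14, where 35.2% of genes at 5 min and 43.9% at 10 min were past 1.5-fold upwards, against 4.20% and 8.00% on the other chromosomes. The part of the chromosome in the value of Bap1 was not tested.

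**Figure D4:**
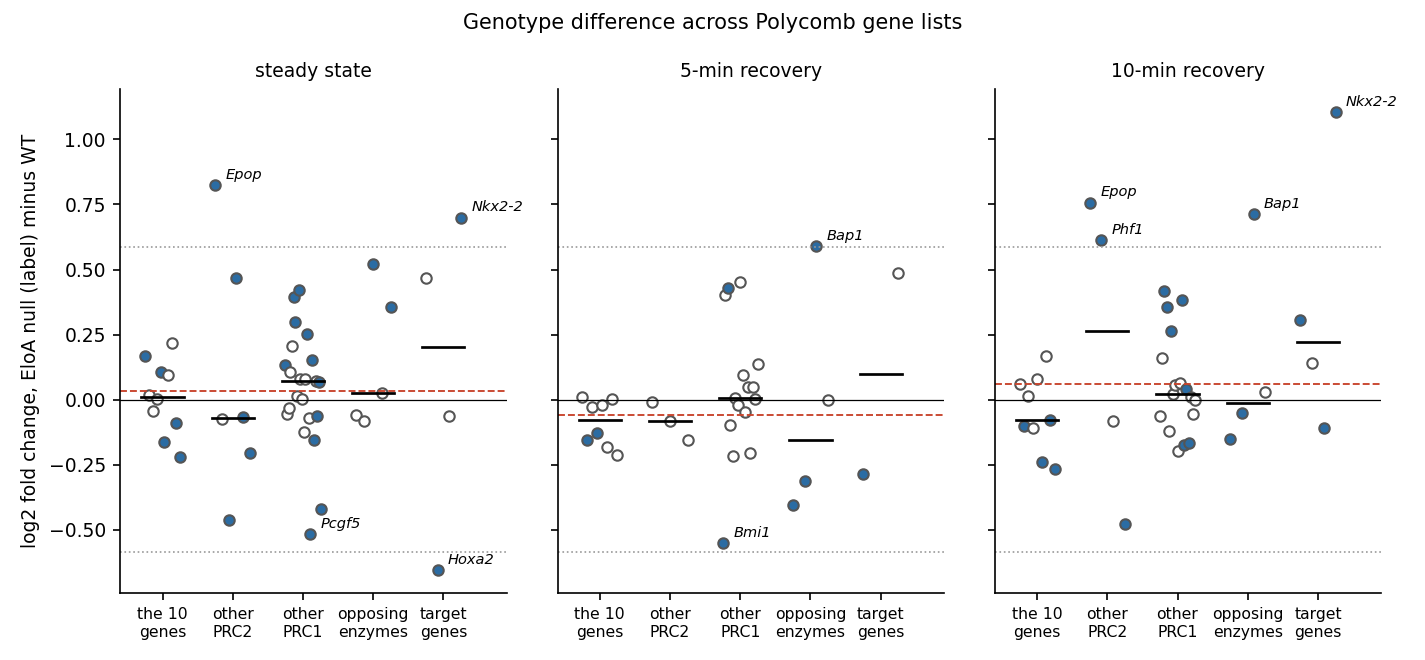
Log2 fold change (EloA null minus WT) of the tested genes of 5 lists, 1 panel per condition; filled points have no overlap between genotypes, black bars are list medians, the red dashed line is the median of all tested genes and dotted lines mark 1.5-fold. All of the 10 genes lie within 0.27 of 0, and labelled genes are those past a 1.5-fold ratio of mean RPKM without overlap.

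Genes listed as Polycomb targets were mostly at or below 0.5 RPKM, though 2 alone of the list were at 0 in all steady-state libraries. Whether Polycomb holds them silent in these cells was not tested. Of 30 developmental regulators on the list, 4 were tested in steady state, 2 at 5 min and 4 at 10 min, and their summed RPKM was 7.32 to 8.77 per library in steady state. None passed the adjusted p. Nkx2-2, a neural homeobox gene, had 0.730 and 0.663 RPKM in WT at steady state and 1.09 and 1.31 in the libraries labelled EloA null, a ratio of 1.72 (limma adjusted p = 0.121). At 10 min it had 0.510 and 0.338 against 1.11 and 0.924, a ratio of 2.40 (adjusted p = 0.135), and at 5 min it overlapped, with 0.486 and 0.231 against 0.559 and 0.478 (ratio 1.44, adjusted p = 0.762). Hoxa2 was lower in steady state, with a ratio of 0.584 from 3 to 10 reads per library. Hoxa2 in steady state and Nkx2-2 at 5 and 10 min passed the filter only in the genotype where they were higher. Hoxc13 had the highest level of the list, 2.64 RPKM in WT and 2.53 in the libraries labelled EloA null at steady state. It had 6.00 and 4.87 at 5 min, and 9.26 and 8.58 at 10 min. Of the 9 stem cell markers, 4 were higher in both libraries labelled EloA null in steady state, with Pou5f1 alone past 1.5-fold (ratio 1.71, adjusted p = 0.227), and 2 were lower, Zfp42 (0.918) and Tfcp2l1 (0.904). Of all tested genes, 32% were higher and 21.4% lower in both libraries in steady state. At 10 min 3 markers were higher and 2 lower, against 33.5% and 21.8% of all tested genes. At 5 min 3 markers were lower and none higher, against 25% and 15.4%. Klf4 among them had a ratio of 0.697 (adjusted p = 0.511, and 0.0413 in the fit of all 12 libraries, the only stem cell marker that either fit called). Of the neural markers tested in steady state, Tubb3 was higher (1.60, adjusted p = 0.179) and Nes overlapped (0.937). Col1a1, of the feeder markers, was lower at 5 min (0.636, adjusted p = 0.569), where it passed the filter in WT only. How far these moved with the Polycomb genes was not tested.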

How the data were processed

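The authors aligned Bru-seq reads with bowtie2 to mm10 and to dm3, for the Drosophila spike-in, counted reads over RefSeq genes with featureCounts 1.6.1 and deposited edgeR RPKM values, in 1 table per condition. The libraries were directional and reads of each strand were separated, but whether counting used strand, and the RefSeq release, are not given in the sources used here. Kdm2b and Ezh2 overlap genes on the opposite strand. The CUT&RUN-seq and ChIP-seq samples of the series were not used here.

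Genotypes were compared within a table with limma 3.58.1 in R 4.3.3 (trend on mean level) after taking log2(RPKM + 0.1), which makes changes of low genes look smaller, and after a filter on mean RPKM above 0.5 in either genotype, with Benjamini-Hochberg adjustment over all genes tested and a threshold of 0.05. An exact permutation test of 2 against 2 libraries cannot go below p = 0.333. A ratio of 1.5 between mean RPKM was counted without a test. Reads were worked out from the deposited RPKM steps and served to state depth only; intervals on them cover counting error only. Scripts were run on simulated data with the same spread set for all genes, which does not measure how the fit performs on these libraries. Promoter sequences and positions come from RefSeq (GRCm38.p6); 24448 of 24980 symbols matched. Named genes were the 10 members, Eloa, the 5 genes most like Eed, the other listed genes past 1.5-fold without overlap between genotypes, and the highest and lowest listed Polycomb gene by steady-state RPKM; Ezh1, Hoxc13, Klf4, Zfp42, Tfcp2l1, Nes and the steady-state level of Phf1 were added after their values were seen. The members and lists were chosen with earlier results of these data known. Alternatives covered the pseudocount, the filter, the scaling, the replicate block, the spread estimate and leaving out each library.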

Additional observations from a re-analysis of the deposited data

How the results depend on the processing

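The log2 fold changes of the 10 genes (27 values that could be tested over the 3 conditions) were recomputed 346 times. None reached an adjusted p under 0.05, with 0.148 the lowest, and 314 kept their sign, while 32 changed it. Suz12 and Mtf2 kept theirs in steady state and at 10 min. Sign changes by median centring and quantile normalization gave, in steady state, -0.0425 and -0.0602 for Eed and -0.0576 and -0.0756 for Jarid2. At 5 min these gave 0.0386 and 0.0242 for Ezh2 and 0.0448 and 0.0436 for Kdm2b. At 10 min they gave -0.0836 and -0.0647 for Ezh2, -0.0377 and -0.0304 for Aebp2, and -0.0172 and -0.00383 for Kdm2b. Median centring put Epop at 0.0580 at 5 min, and quantile normalization put Hoxa2 at -0.714 at 10 min. The values that changed sign under these scalings are close to 0, except for Hoxa2. Leaving out a library also changed the sign of larger values. These were -0.212 for Suz12 and -0.183 for Mtf2 at 5 min, and -0.107 for Jarid2 at 10 min.

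Leaving out each library in turn gave, in steady state, -0.00884 to 0.0436 for Eed, -0.155 to 0.0717 for Ezh2, -0.0829 to 0.0876 for Jarid2 and -0.150 to 0.0875 for Bmi1. At 5 min the ranges were -0.0997 to 0.0445 for Ezh2, -0.451 to 0.0279 for Suz12, -0.444 to 0.0775 for Mtf2, -0.127 to 0.148 for Aebp2, -0.117 to 0.119 for Rnf2, -0.0743 to 0.0316 for Kdm2b and -0.408 to 0.392 for Epop. At 10 min they were -0.0304 to 0.0571 for Ezh2, -0.243 to 0.0289 for Jarid2, -0.00799 to 0.127 for Aebp2, -0.00735 to 0.167 for Kdm2b, -0.182 to 0.0606 for Bmi1 and -0.480 to 0.760 for Hoxa2. A lone library in an arm was assumed to vary like the other arm.

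Counts over all genes moved more than the members did, and the cause was not tested beyond the fewer or more genes that each filter lets in. In steady state, limma called 0 genes as reported, 1 with a filter of mean RPKM above 2, 81 with robust variance estimates and 136 in the fit of all 12 libraries. At 5 min the counts were 29 with robust estimates, 558 in the fit of all 12 libraries, and 0 to 60 without each library. At 10 min they were 5 with a pseudocount of 1, 7 with the filter above 2, 12 with median centring, 6 with quantile normalization, 26 with robust estimates, 360 in the fit of all 12 libraries, and 0 to 33 without each library. The 1.5-fold counts were 5696, 6774 and 6661 genes with no filter and 357, 342 and 483 with the filter above 2. The tests of the change between conditions called, at 5 min, 1 gene with a pseudocount of 1, 57 with no filter and, without each library, 0, 2, 3, 4, 7, 8, 13, 18 or 20, and at 10 min 27 with no filter and 0 to 1. The median level of the 10 genes relative to steady state, with each library divided by its median, was 0.775 (WT) and 0.850 (EloA null) at 5 min and 0.817 and 0.786 at 10 min.

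Samples with the same replicate number deviated together only weakly (correlations of 0.101, 0.119 and 0.103), and the numbers were not taken as a pairing. With the replicate block, 0 genes passed in steady state, 128 at 5 min and 0 at 10 min, none of them a member.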
